A study of Mus musculus with 12 samples.

Results

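The transcripts described are mt-Nd1, mt-Nd2, mt-Nd4, mt-Nd5, mt-Co1 and mt-Cytb, 6 messenger RNAs (mRNAs) encoded by the mitochondrial chromosome of the mouse. They were chosen by name, by matching the Ensembl identifiers of the table to GENCODE M21 symbols. No measured value entered that rule, but earlier results of these data were known when the genes were chosen. They are 6 of the 37 mitochondrial rows and of 52638 rows in all. The other mitochondrial rows are 7 mRNAs, 2 ribosomal RNAs and 22 transfer RNAs.

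Mitochondrial mRNAs are transcribed inside the organelle and translated there by mitochondrial ribosomes, which carry their own set of nuclear-encoded ribosomal proteins. All the proteins they encode are subunits of the respiratory chain or of ATP synthase, and they are assembled with subunits made on cytosolic ribosomes. Translating ribosome affinity purification (TRAP) pulls down a tagged cytosolic ribosomal protein, so mitochondrial mRNAs are not on the ribosomes that carry the tag.

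The tagged protein here was the large-subunit protein L10a fused to green fluorescent protein (GFP), switched on by Cre in cells that express or have expressed the long leptin receptor, LepRb. Ctrl mice were LepRb-Cre/Cre and R26-GFP:L10a/GFP:L10a. Stat3KO mice were LepRb-Cre/Cre, Stat3-flox/flox and R26-GFP:L10a/GFP:L10a, so both genotypes were homozygous for Cre and for the tag, and differed by the floxed Stat3 gene. Hypothalami of 5 to 8 adult mice, taken at the middle of the light period, were pooled for each replicate. Each of the 3 pools per genotype gave a bead-bound library (RNA on tagged ribosomes) and a supernatant library (RNA left after the pull-down), hence 4 groups of 3 libraries. The supernatant holds RNA of all hypothalamic cells, LepRb cells included.

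Total counts ran from 20743217 to 41829907 per library. Levels are given as CPM, that is counts scaled to library sizes corrected by TMM. The transgene row Gfp_L10a stood at 82.3 to 164 CPM in the 6 bead-bound libraries and at 7.39 to 15.3 CPM in the supernatants. Lepr, the leptin receptor gene, stood at 5.84 to 13.5 CPM in bead-bound RNA, lowest in Ctrl replicate 1, and its log2 fold change against supernatant was 2.34 (adjusted p = 4.68e-07 by edgeR). On the beads Stat3 had 144, 175 and 179 CPM in the Ctrl pools, against 114, 149 and 160 CPM in the Stat3KO pools. The groups overlapped for Stat3 (log2 fold change -0.24, standard error (SE) 0.160, adjusted p = 0.999, edgeR quasi-likelihood test). A count over the whole gene does not separate floxed from retained exons, and no source used here names the floxed exons.

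All 6 genes lie on the plus strand of chromosome M (GRCm38 coordinates, GENCODE M21), as single uninterrupted gene models. The complex I genes, whose products are core membrane subunits of NADH dehydrogenase, are mt-Nd1 at 2751 to 3707, mt-Nd2 at 3914 to 4951, mt-Nd4 at 10167 to 11544 and mt-Nd5 at 11742 to 13565. The gene mt-Cytb, for cytochrome b of complex III, lies at 14145 to 15288. The gene mt-Co1, for the catalytic subunit of cytochrome c oxidase (complex IV), lies at 5328 to 6872. The end of mt-Nd5 overlaps mt-Nd6, which is read from the minus strand at 13552 to 14070, and nothing in the labels says that the library kit preserves strand, so reads in the overlap cannot be told apart.

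Parts of these genes also stand in the nuclear genome, as copies of mitochondrial DNA annotated as pseudogenes, and this bears on which reads have a single place to map. Reads were 50 bases long, so every 50-base stretch of each gene was looked up in the annotated nuclear transcripts. No stretch of mt-Nd1 or mt-Cytb was found there. The share was 7.61% for mt-Nd5, 8.19% for mt-Nd2, 51.1% for mt-Co1 (765 of 1496 stretches) and 62.2% for mt-Nd4 (827 of 1329). A block of 7 copies on chromosome 1, chr1:24611535-24616197 (minus strand), holds Gm28439, whose 876 bases are identical to bases 1 to 876 of mt-Nd4. The sequences below show where that copy ends within mt-Nd4, which is where the part of the gene unique among these transcripts begins. Capitals mark the bases of mt-Nd4 beyond the end of the copy (mt-Nd4 bases 817 to 936, chrM:10983-11102, plus strand; Gm28439, chr1:24611535-24611594, minus strand).

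mt-Nd4: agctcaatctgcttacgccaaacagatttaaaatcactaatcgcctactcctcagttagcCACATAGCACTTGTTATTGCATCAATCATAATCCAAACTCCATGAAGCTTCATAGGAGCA

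Gm28439: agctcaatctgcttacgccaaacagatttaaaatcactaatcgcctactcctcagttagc

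For mt-Co1 the sharing begins at the other end of that block. Gm29216 matches bases 1054 to 1545 of mt-Co1 at 486 of 492 bases, and Gm13340 on chromosome 2 matches the whole gene at 1508 of 1545 bases. The first 80 bases of the stretch that all 3 share are printed to show how few letters tell them apart. Capitals mark bases that differ from mt-Co1 (mt-Co1 bases 1054 to 1133, chrM:6381-6460, plus strand; Gm29216, chr1:24616118-24616197, minus strand; Gm13340, chr2:22588515-22588594, minus strand).

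mt-Co1: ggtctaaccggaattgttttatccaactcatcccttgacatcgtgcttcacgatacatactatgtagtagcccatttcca

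Gm29216: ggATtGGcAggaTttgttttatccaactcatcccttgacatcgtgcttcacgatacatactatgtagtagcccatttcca

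Gm13340: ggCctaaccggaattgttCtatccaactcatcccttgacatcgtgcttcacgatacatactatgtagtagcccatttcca

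The 6 differences of Gm29216 all fall in its first bases (T1056A, C1057T, A1059G, A1060G, C1062A and A1066T, mt-Co1 base first, positions from 1 at the gene's start), and its last 479 bases are identical to mt-Co1. Between mt-Co1 and mt-Nd4 lie 6 further mRNA genes, and 5 of them had 98.0% to 100% of their stretches in nuclear transcripts: mt-Co2, mt-Atp6, mt-Co3, mt-Nd3 and mt-Nd4l. These 5 genes together had 31 counts in all 12 libraries, against 2008761 for the 6 genes. The exception in sequence was mt-Atp8, with 0% of stretches in annotated transcripts and a count of 0 in every library. On chromosome 1 the copies of its neighbours, Gm28661 and Gm10925, are 233 bases apart, close to the 230 bases between mt-Co2 and mt-Atp6, but that gap is not annotated as a transcript. The counting of reads that match several places is not given in the sources used here, and the part of shared sequence in these low counts was not tested.

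**Figure D1:**
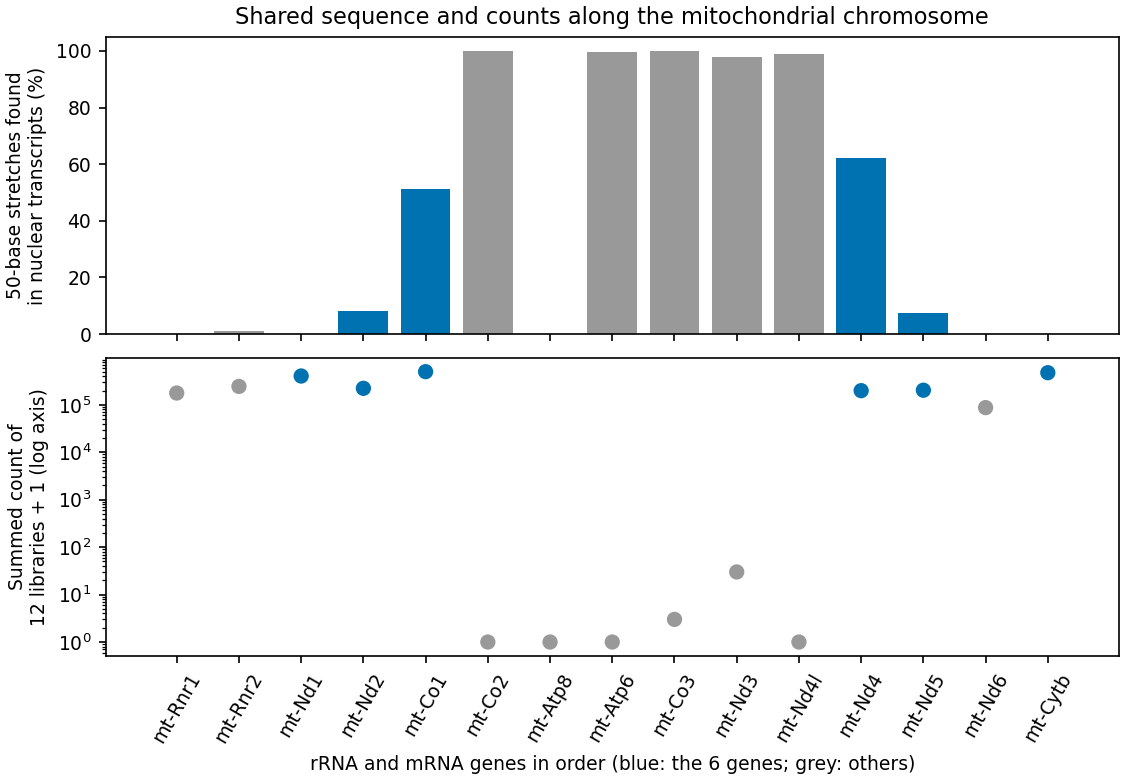
Upper panel: percent of the 50-base stretches of each mitochondrial rRNA and mRNA gene that occur in annotated nuclear transcripts. Lower panel: the summed count of the 12 libraries plus 1, on a log axis, with the genes in chromosome order. The 6 genes described (blue) have 0% to 62.2% shared stretches, and the run from mt-Co2 to mt-Nd4l is at or near a count of 0.

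The nuclear copies themselves were barely counted. Gm13340 had 183 counts over the 12 libraries and at most 54 in one, Gm13341 had 61, and Gm28439 and Gm29216 had 12 and 25. Counts on the 6 genes were therefore compared with each other per length in 2 ways. The same count of the whole gene was divided by the gene's length, or by its number of stretches not found in nuclear transcripts. No count was restricted to the unshared part. The second value is a level there only if no read from shared stretches was counted, which was not tested.

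Per kilobase (kb) of gene, the level in Ctrl supernatant was 1803 ± 107 CPM per kb for mt-Cytb (SD, n = 3, as for all such values), 1715 ± 50.8 for mt-Nd1 and 1368 ± 62.6 for mt-Co1. It was 942 ± 28.0 CPM per kb for mt-Nd2, 627 ± 48.2 for mt-Nd4 and 468 ± 18.4 for mt-Nd5. In this order mt-Cytb and mt-Nd1 overlapped between libraries, and the other neighbours did not. Per kb of unshared stretches, the order was different: mt-Co1 came first with 2890 ± 132 CPM per kb, followed by mt-Cytb (1883 ± 112), mt-Nd1 (1808 ± 53.5), mt-Nd4 (1721 ± 132), mt-Nd2 (1077 ± 32.0) and mt-Nd5 (520 ± 20.5). On that scale mt-Cytb, mt-Nd1 and mt-Nd4 overlapped. Thus mt-Nd5 was the lowest of the 6 on both scales, while the places of mt-Co1 and mt-Nd4 depended on the length used.

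Stat3KO supernatant had a wider spread, since replicate 3 was low for all 6 genes. The whole-gene level there was 2052 ± 608 CPM per kb for mt-Nd1, 1914 ± 632 for mt-Cytb, 1496 ± 456 for mt-Co1, 971 ± 329 for mt-Nd2, 662 ± 215 for mt-Nd4 and 515 ± 161 for mt-Nd5. Within each of these 3 libraries mt-Nd1 stood above mt-Cytb, whereas in each Ctrl supernatant mt-Cytb stood above mt-Nd1. That difference between genotypes was not tested.

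In Stat3KO bead-bound RNA the whole-gene level was 50.7 ± 22.8 CPM per kb for mt-Nd1, 48.0 ± 11.05 for mt-Co1, 38.4 ± 17.3 for mt-Cytb, 20.4 ± 7.52 for mt-Nd2, 14.3 ± 2.56 for mt-Nd5 and 13.9 ± 4.95 for mt-Nd4. The ranges over libraries overlapped for each pair of neighbours in this order. Within each of the 3 libraries mt-Co1 stood above mt-Cytb, mt-Cytb above mt-Nd2 and mt-Nd2 above mt-Nd5, whereas the order of mt-Nd1 and mt-Co1, and that of mt-Nd5 and mt-Nd4, differed between libraries. In Ctrl bead-bound RNA the SD was close to the mean or above it for every gene, from 29.1 ± 28.1 CPM per kb for mt-Nd5 to 112 ± 152 for mt-Cytb, and 1 library accounted for the spread.

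The main contrast was between the fractions. The 6 genes took 0.966%, 0.853% and 0.878% of all counts in Ctrl supernatants 1, 2 and 3, and 1.18%, 1.11% and 0.614% in Stat3KO supernatants. They took 0.128%, 0.0140% and 0.0163% in Ctrl bead-bound libraries, and 0.0296%, 0.0205% and 0.0165% in Stat3KO bead-bound libraries. Every supernatant stood above every bead-bound library, and Ctrl bead-bound replicate 1 stood apart from the other 5 bead-bound libraries. The group means were 0.899 ± 0.0592% in Ctrl supernatant, 0.967 ± 0.308% in Stat3KO supernatant, 0.0528 ± 0.0653% in Ctrl bead-bound RNA and 0.0222 ± 0.00671% in Stat3KO bead-bound RNA (SD, n = 3 each). The smallest number of counts on the 6 genes in any library was 4637, so these shares do not rest on few reads.

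**Figure D2:**
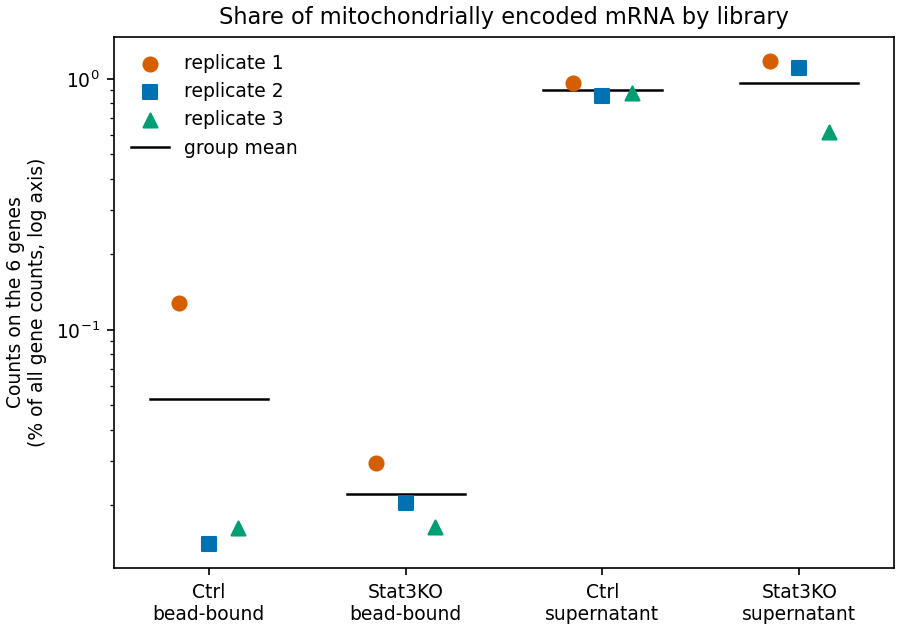
Share of all gene counts that fell on the 6 genes in each of the 12 libraries (percent, log axis), by group; the lines are group means. The supernatants lie between 0.614% and 1.18%, 5 of the 6 bead-bound libraries between 0.0140% and 0.0296%, and Ctrl bead-bound replicate 1 at 0.128%.

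Within a pool, the bead-bound share was 13.3%, 1.64% and 1.85% of the supernatant share in Ctrl pools 1, 2 and 3, and 2.51%, 1.86% and 2.68% in Stat3KO pools 1, 2 and 3. All 6 pools thus had the same direction, and 5 of them lay between 1.64% and 2.68%. In bulk RNA of this kind, fewer cells of a type and less RNA per cell cannot be told apart.

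Among the complex I genes, mt-Nd1 had 1697, 1609 and 1618 CPM in Ctrl supernatant and 254, 26.0 and 30.8 CPM on the Ctrl beads. In Stat3KO it had 2428, 2152 and 1312 CPM in supernatant and 73.6, 38.0 and 34.1 CPM in bead-bound RNA. The fractions did not overlap in either genotype, and the highest bead-bound value was that of Ctrl replicate 1. Over both genotypes, the log2 fold change of bead-bound against supernatant RNA was -4.66 (SE 0.512, adjusted p = 6.10e-06, edgeR quasi-likelihood test with Benjamini-Hochberg adjustment over all genes).

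The levels of mt-Nd2 were 1006, 948 and 979 CPM in Ctrl supernatant, 141, 16.3 and 15.3 in Ctrl bead-bound RNA, 1246, 1161 and 616 in Stat3KO supernatant and 29.9, 18.7 and 14.9 in Stat3KO bead-bound RNA. Those of mt-Nd4 were 935, 803 and 854 CPM, 147, 12.6 and 13.2, 1119, 1045 and 572, and 26.9, 16.8 and 13.9 CPM in the same order of groups. Both genes showed the pattern of mt-Nd1, with no overlap between fractions and a single high bead-bound library. Their log2 fold changes were -4.83 for mt-Nd2 (SE 0.511) and -4.74 for mt-Nd4 (SE 0.551), with adjusted p of 4.48e-06 and 9.83e-06 by edgeR.

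For mt-Nd5 the values were 825, 844 and 890 CPM in Ctrl supernatant, 112, 23.4 and 23.6 in Ctrl bead-bound RNA, 1122, 1095 and 600 in Stat3KO supernatant and 30.4, 26.6 and 21.1 in Stat3KO bead-bound RNA. Outside Ctrl replicate 1 its bead-bound values ran only from 21.1 to 30.4 CPM, the narrowest spread of the 6 genes relative to their level. The log2 fold change was -4.59 (SE 0.371, adjusted p = 4.63e-07 by edgeR).

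The complex III gene mt-Cytb had 2195, 1954 and 2036 CPM in Ctrl supernatant and 329, 26.4 and 28.0 CPM in Ctrl bead-bound RNA. In Stat3KO it had 2699, 2506 and 1362 CPM in supernatant and 66.6, 34.9 and 30.1 CPM in bead-bound RNA. It had the largest ratio of Ctrl bead-bound replicate 1 to the other Ctrl bead-bound libraries. The log2 fold change was -4.83 (SE 0.576, adjusted p = 1.20e-05 by edgeR).

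The complex IV gene mt-Co1 had 2213, 2020 and 2105 CPM in Ctrl supernatant and 328, 44.0 and 61.6 CPM in Ctrl bead-bound RNA. In Stat3KO it had 2703, 2732 and 1498 CPM in supernatant and 91.9, 72.8 and 57.8 CPM in bead-bound RNA. In the 5 bead-bound libraries other than Ctrl replicate 1 it was the most highly counted of the 6. The log2 fold change was -4.42 (SE 0.426, adjusted p = 2.02e-06 by edgeR).

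All 6 genes thus passed the test as lower in bead-bound RNA, where 28.7% of the 19122 genes tested passed in that direction. Their median log2 fold change was -4.70, against -0.03 over all genes tested, and they took places 16 to 36 from the lowest. Within Ctrl, all 6 passed (21.2% of genes did in that direction), at places 49 to 74 of 18036. Their log2 fold changes there were -3.85 to -4.06, with adjusted p of 0.00188 to 0.0112 by edgeR. Within Stat3KO, all 6 passed (17.3% of genes did), with log2 fold changes of -4.97 to -5.65 and adjusted p of 1.72e-05 to 3.94e-05 by edgeR, at places 2 to 16 of 18107. The fractions of 3 libraries did not overlap for any of the 6 genes in either genotype, where 28.1% of genes in Ctrl and 25% in Stat3KO were lower in bead-bound RNA without overlap.

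One library set the size of the Ctrl value. Without Ctrl bead-bound replicate 1, the log2 fold changes in Ctrl were -5.19 for mt-Nd5, -5.33 for mt-Co1, -5.86 for mt-Nd1, -5.95 for mt-Nd2, -6.07 for mt-Nd4 and -6.25 for mt-Cytb. Those over both genotypes were then -5.14 to -5.94. Bead-bound and supernatant RNA came from the same pools, and with the pool as a block the values over both genotypes were -4.71 to -5.39 and those in Ctrl -4.43 to -5.12, and no call changed.

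The supernatant level was 6.35 to 7.34 times the bead-bound level for all 6 genes in Ctrl pool 1. In the other 5 pools the ratio ran from 25.9 (mt-Co1, Stat3KO pool 3) to 74.1 (mt-Cytb, Ctrl pool 2). In those pools mt-Co1 and mt-Nd5 had the smallest ratios, except in Stat3KO pool 1, where mt-Nd1 (33.0) stood below mt-Nd5 (36.9). In Ctrl pool 1 the 6 ratios were nearly level.

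**Figure D3:**
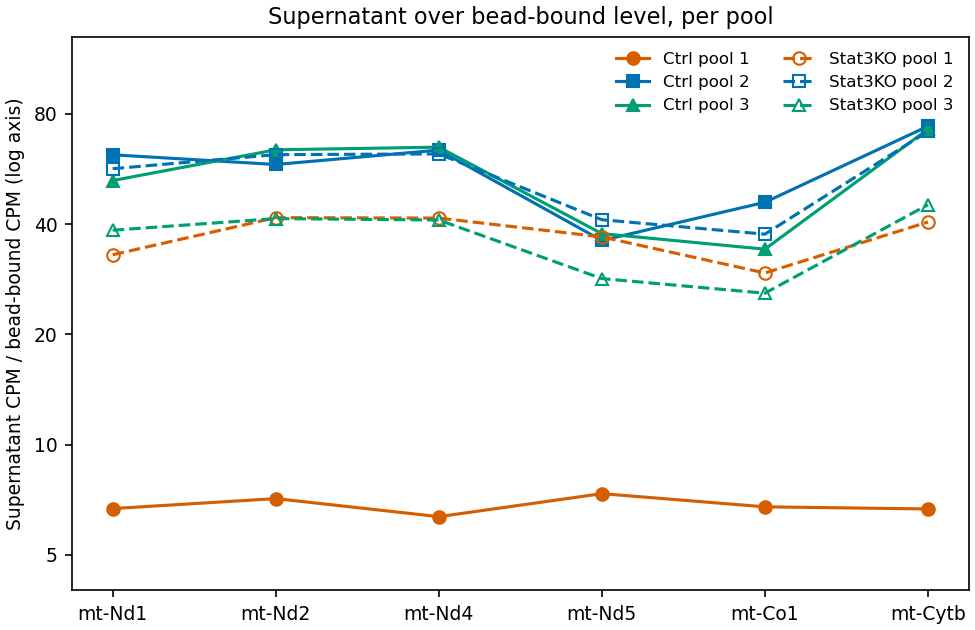
Supernatant CPM divided by bead-bound CPM for each of the 6 genes (log axis), 1 line per pool. Ctrl pool 1 is nearly flat at 6.35 to 7.34, while the other 5 pools lie between 25.9 and 74.1 and dip at mt-Nd5 and mt-Co1.

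The make-up of the counts on the 6 genes differed in the same way. In Ctrl supernatant mt-Co1 took 24.8 ± 0.122% of these counts and mt-Cytb 24.2 ± 0.461%. In bead-bound RNA mt-Co1 took 30.1 ± 5.39% in Ctrl and 32.5 ± 3.28% in Stat3KO, and mt-Cytb took 19.7 ± 4.74% and 18.4 ± 2.16% (SD, n = 3 each). Ctrl bead-bound replicate 1 had 25.0% for mt-Co1 and 25.1% for mt-Cytb, near the 24.9% and 24.7% of the supernatant of its own pool. The other Ctrl bead-bound libraries had 29.6% and 35.7% for mt-Co1 and 17.7% and 16.2% for mt-Cytb.

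For the 15 ratios between 2 of the genes, the change from supernatant to bead-bound RNA was taken in each of the 6 pools. The ratio of mt-Nd2 to mt-Co1 was lower in bead-bound RNA in 6 of 6 pools, by a mean log2 difference of -0.54 (SD 0.296, exact 2-sided sign-flip permutation test p = 0.0312, the smallest that 6 pools allow, 0.117 adjusted over the 15 ratios). The ratio of mt-Co1 to mt-Cytb was higher in 5 of 6 pools, by 0.66 (SD 0.395, exact permutation p = 0.0625, adjusted 0.117), and Ctrl pool 1 was the exception with -0.02. None of the 15 ratios passed after adjustment.

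**Figure D4:**
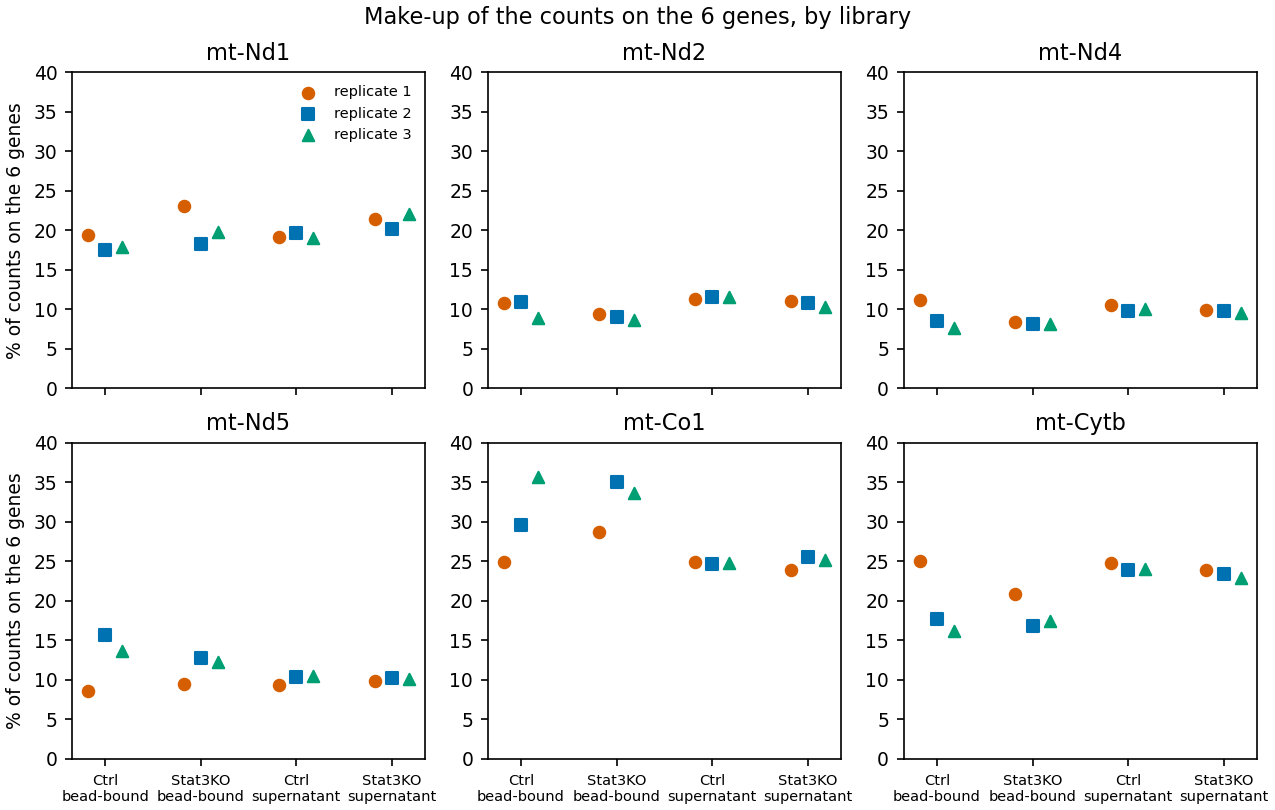
Percent of the counts on the 6 genes that fell on each gene, by library and group, with markers for replicates 1, 2 and 3. The supernatants lie close together in each panel, while in bead-bound RNA mt-Co1 reaches 35.7% and mt-Cytb falls to 16.2%, apart from Ctrl replicate 1.

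The genotypes were then compared within each fraction, which asks whether loss of Stat3 in LepRb cells went with a change in these transcripts. In bead-bound RNA the log2 fold changes of Stat3KO against Ctrl were -0.96 (mt-Co1), -1.03 (mt-Nd5), -1.09 (mt-Nd1), -1.44 (mt-Nd2), -1.54 (mt-Cytb) and -1.58 (mt-Nd4), with SEs of 0.521 to 0.823. No gene passed by edgeR (0 of 6, adjusted p = 0.999 for each, 0 of 6 at an unadjusted p under 0.05, 0 of the 2 to which DESeq2 gave an adjusted p). Of the 17354 genes tested 0.449% passed, and 4.11% had an unadjusted p under 0.05. The groups overlapped for all 6 genes, where 9.37% of genes did not overlap. Without Ctrl bead-bound replicate 1 all 6 values turned positive, from 0.15 (mt-Nd5) to 0.77 (mt-Nd1), and still none passed, so the direction rested on that library. With no filter on low counts all 6 passed by edgeR, and with that library also left out 2 passed in the opposite direction. With only the filter dropped, SEs were smaller in the contrast of fractions over both genotypes, from 0.512 to 0.121 for mt-Nd1.

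In supernatant the log2 fold changes of Stat3KO against Ctrl were 0.036 for mt-Nd2, 0.071 for mt-Nd4, 0.079 for mt-Cytb, 0.12 for mt-Co1, 0.13 for mt-Nd5 and 0.25 for mt-Nd1, with SEs of 0.184 to 0.206. No gene passed by edgeR (0 of 6, adjusted p = 0.878 to 0.984, 0 of 6 at an unadjusted p under 0.05, 0 of 6 by DESeq2). Of the 18547 genes tested 0.0108% passed, and 6.2% had an unadjusted p under 0.05. The groups overlapped for all 6 (12.7% of genes did not overlap), since Stat3KO replicates 1 and 2 stood above the Ctrl libraries and replicate 3 below them. The difference between genotypes in the bead to supernatant ratio was -1.09 (mt-Co1) to -1.66 (mt-Nd4) on the log2 scale. No gene passed for it by edgeR (0 of 6, adjusted p = 1.00 for each, 0 of 6 at an unadjusted p under 0.05, 0 of the 5 with an adjusted p by DESeq2). Of the 19122 genes tested 0.204% passed, and 2.12% had an unadjusted p under 0.05. Without Ctrl bead-bound replicate 1 those 6 values also turned positive, from 0.0083 to 0.60.

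Other rows of the mitochondrial chromosome moved with the 6 genes. The light-strand mRNA mt-Nd6, a further complex I subunit, had 378, 341 and 366 CPM in Ctrl supernatant and 60.9, 9.68 and 9.98 CPM in Ctrl bead-bound RNA. In Stat3KO it had 530, 449 and 246 CPM in supernatant and 16.4, 12.3 and 7.78 CPM in bead-bound RNA. It fell by 4.42 on the log2 scale (SE 0.432, adjusted p = 2.31e-06 by edgeR). Strand is not known to be kept, so plus-strand reads anywhere in the mt-Nd6 interval could be part of its count. The ribosomal RNAs mt-Rnr1 and mt-Rnr2, which form the core of the mitochondrial ribosome, also fell: mt-Rnr1 fell by 4.44 and mt-Rnr2 fell by 4.41. The library kit selects polyadenylated RNA, so their counts are not a measure of all mitochondrial rRNA.

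Of the transfer RNA rows, 7 had a mean count of at least 10, and 6 of these fell by 3.74 (mt-Te) to 4.95 (mt-Tc). Several of these values rest on few bead-bound reads. The counts were 3, 3 and 0 in Ctrl and 4, 0 and 0 in Stat3KO for mt-Te, and 18, 2 and 4, and 9, 1 and 1 for mt-Ta. The selection of polyadenylated RNA limits these rows too. Rows on the minus strand, mt-Te, mt-Ta and mt-Tc among them, could also hold reads of the opposite strand. The seventh, mt-Tq, had no count in any Ctrl bead-bound library and 12, 28 and 28 counts in Ctrl supernatant. In all, 18 of the 37 mitochondrial rows could be tested, and all 18 passed as lower in bead-bound RNA, where 28.7% of all genes tested did. Rows at or near 0 on the beads, such as mt-Tq and mt-Te, passed the count filter only through the supernatant. Their direction followed from that filter. A row at 0 in all 12 libraries was found for 11 of the 37.

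The nuclear genes whose products work beside these proteins went the other way. Of 36 nuclear complex I subunits, 31 rose in bead-bound RNA and none fell, with a median log2 fold change of 0.48 against -0.03 over all genes, and 26.2% of all genes passed as higher. Ndufv2, a subunit of the NADH-binding module, rose by 0.47 (SE 0.0911, adjusted p = 0.000619 by edgeR). Of 9 nuclear complex III subunits 8 rose (median 0.49), among them the core protein Uqcrc1 by 0.23. Of 11 nuclear complex IV subunits 10 rose (median 0.44), among them Cox4i1 by 0.44. So mt-Co1 and Cox4i1, subunits of 1 enzyme, changed in opposite directions between the fractions.

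Of 78 tested genes for mitochondrial ribosomal proteins, 69 rose and 1 fell, with a median of 0.48. Dap3 rose by 0.41 and Mrpl50 by 0.47. For mitochondrial transcription and RNA processing, 6 of 20 genes rose and 2 fell (median 0.12), where 26.2% of all genes passed as higher and 28.7% as lower. The share that rose was thus near that of all genes. Tfam, which packages mitochondrial DNA and starts its transcription, rose by 0.31, and Grsf1, an RNA-binding protein of mitochondrial RNA granules, rose by 0.18 with an adjusted p of 0.0470 by edgeR. Lrpprc, which stabilises mitochondrial mRNAs, had a log2 fold change of 0.21 and an adjusted p of 0.351 by edgeR. Of 37 genes for large-subunit proteins of the cytosolic ribosome, the kind that carries the tag, 31 rose and 1 fell (median 0.80). None of these nuclear lists had a called member between genotypes in either fraction. Over all genes tested only 0.449% passed in bead-bound RNA and 0.0108% in supernatant, so this says little about the lists.

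These gains were small enough to depend on scaling. Library totals alone moved the median of all genes to -0.16. With that scaling 24 complex I genes rose and 1 fell, and 6 complex III, 8 complex IV and 56 mitochondrial ribosomal protein genes rose. Over all 19122 genes tested, 3630 then passed as higher and 6722 as lower. For transcription and RNA processing 2 rose and 4 fell, with a median of -0.012, so that list had no stable direction. Uqcrc1, Tfam and Grsf1 no longer passed (edgeR adjusted p of 0.359, 0.0769 and 0.539), though these 3 stayed above 0.

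A list of noncoding RNAs held mostly in the nucleus shared the direction of the 6 genes but not the size. Of 11 tested, 8 fell and 2 rose, with a median of -1.70. Meg3 fell by 2.92 (from 4901 CPM in Ctrl supernatant to 647 CPM in Ctrl bead-bound RNA) and Snhg11 fell by 2.08. Peg13, which is in the list, rose by 0.32, and the highest log2 fold change in the list was 1.99. Summed over the list, the bead-bound level was 28.7%, 21.2% and 24.0% of the supernatant level in Ctrl pools 1, 2 and 3 and 18.6%, 38.6% and 28.9% in Stat3KO pools 1, 2 and 3. Ctrl pool 1 did not stand apart there as it did for the 6 genes.

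Markers of other cell types were read in the same way, since RNA of cells without the tag can stay on the beads. All 7 astrocyte, 7 oligodendrocyte, 3 oligodendrocyte precursor, 5 microglia and 5 blood markers fell by edgeR over both genotypes, with medians of -1.07, -1.41, -1.35, -1.60 and -1.08, where 28.7% of all genes passed as lower and 26.2% as higher. Of 4 choroid plexus markers 2 fell, Kl rose by 0.49 and 1 did not pass (median -0.99). By library totals alone Kl did not pass (log2 fold change 0.36, edgeR adjusted p = 0.0860). Of 6 general neuron markers 3 rose and none fell (median 0.39). All 5 markers of LepRb neurons of the arcuate nucleus rose (median 4.77), as did the 5 endothelial markers (median 1.86), of which 4 passed within Stat3KO. The summed endothelial level in bead-bound RNA was 94.8% of the supernatant level in Stat3KO pool 1 and 240.1% to 677% in the other 5 pools. No marker of these lists was at 0 in all libraries.

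The summed astrocyte level in bead-bound RNA was 81.9%, 52.3% and 50.1% of the supernatant level in Ctrl pools 1, 2 and 3, and 70.5%, 55.9% and 54.8% in Stat3KO pools. For oligodendrocytes it was 56.5%, 28.9% and 31.1% in Ctrl, and 48.5%, 38.9% and 36.4% in Stat3KO. For microglia it was 46.9%, 24.8% and 25.6% in Ctrl, and 38.3%, 36.2% and 28.6% in Stat3KO. Ctrl pool 1 was the highest of the 6 pools for all 3 lists, as it was for the 6 mitochondrial genes, and Stat3KO pool 1 came next for the 3 lists but not for the 6 genes. Summed bead-bound levels in CPM ran from 843 to 1299 in Ctrl and from 798 to 1021 in Stat3KO for astrocytes, and from 1537 to 2673 and from 1421 to 2129 for oligodendrocytes. The blood list did not set pool 1 apart (51.3%, 50.3% and 48.6% in Ctrl). The part of other cells' RNA in the level of the 6 genes in Ctrl bead-bound replicate 1 was not tested.

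**Figure D5:**
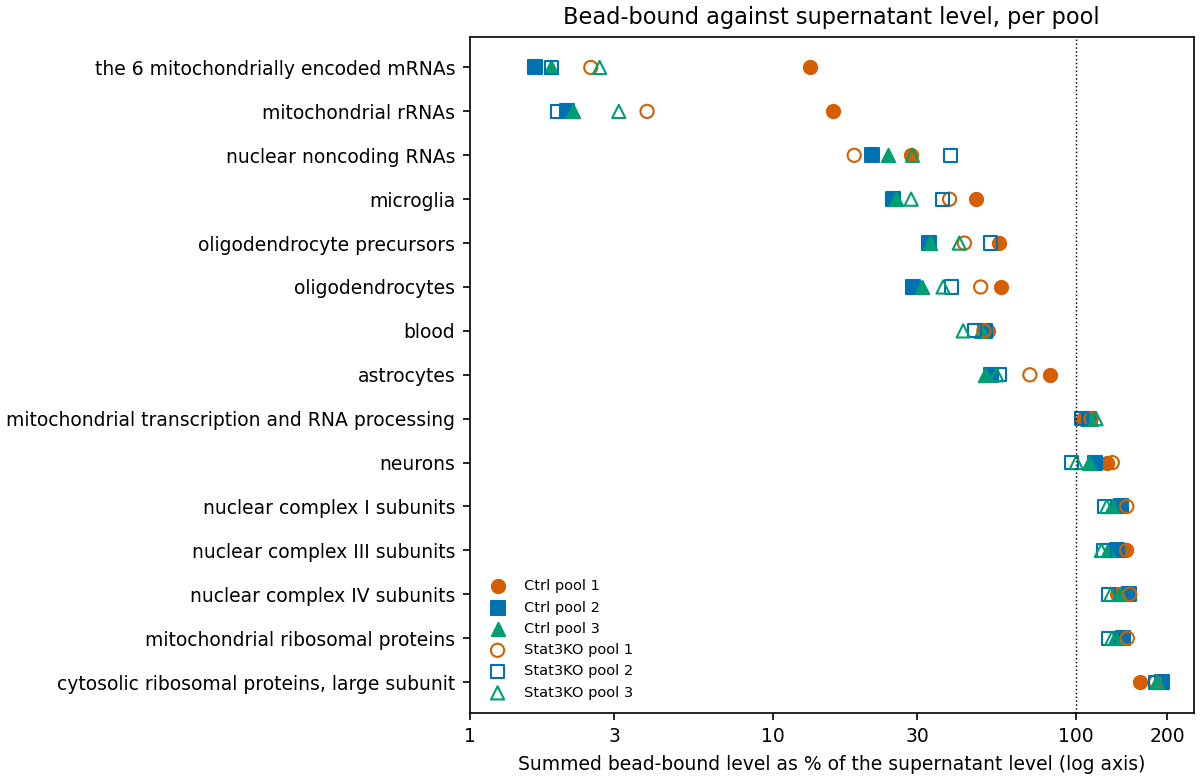
Summed bead-bound level as a percent of the summed supernatant level of the same pool (log axis) for the 6 genes, as share of counts, and for 14 other lists, as CPM; the dotted line is 100%. The 6 genes and the mitochondrial rRNAs lie at 1.64% to 15.8%, glial lists at 24.8% to 81.9%, and nuclear genes of the respiratory chain above 100%.

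The 6 genes moved almost as one across libraries, with Pearson's r of log2 CPM between any 2 of them from 0.994 to 1.000 over the 12 libraries. These values are descriptive: the libraries form 2 fractions far apart, and the points share depth and pool. Among 19104 nuclear genes, the 5 most like the mean of the 6 were Zfp36l2 (r = 0.992), Rab31 (0.990), Adhfe1 (0.988), Gm43364 (0.986) and Gm45250 (0.986), each over 12 libraries, and 280 genes had an r over 0.95. Zfp36l2, which encodes an RNA-binding protein of the family that promotes mRNA decay, had 21.2, 21.6 and 24.0 CPM in Ctrl supernatant and 14.5, 7.54 and 7.78 CPM in Ctrl bead-bound RNA. Rab31, for a small GTPase of membrane traffic, had 126, 121 and 121 CPM in Ctrl supernatant and 60.6, 34.9 and 36.6 CPM in Ctrl bead-bound RNA. Both were picked by their likeness over these same libraries, so their values are a description only.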

How the data were processed

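Polyadenylated RNA of 12 libraries was sequenced in 50 cycles, single end, per the labels' protocols. The submitters' processing notes name STAR 2.5.3a and the build mm10. The deposited counts are whole numbers for each gene, which the authors left without normalisation. The counting step, its annotation, its strand setting and its handling of reads with several places were not given in the sources used here. All 12 count columns were mapped to samples by the numbers in the sample descriptions.

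Gene names, coordinates and transcripts came from GENCODE M21 (GRCm38), which matched 52403 of 52638 rows. Every stretch of 50 bases of a mitochondrial transcript was searched, on both strands, in the annotated nuclear transcripts. Nuclear sequence outside them was not searched.

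The main test was edgeR's quasi-likelihood fit (edgeR 4.0.16, R 4.3.3) with TMM scaling and the filterByExpr filter (count 10, total 15, 2-sided, Benjamini-Hochberg adjusted p under 0.05 over all genes tested). Both contrasts over all groups used 12 libraries and the other comparisons 6. The SE was the size of the log2 fold change over the root of the F statistic. The code was tested on simulated data. Alternatives were DESeq2 1.42.0, other scalings, no filter, a replicate block and leaving out libraries. Bead-bound and supernatant libraries of 1 number come from the same pooled animals, and their deviations from the group means correlated at r = 0.196 to 0.367 in all 6 pools. Replicates are separate pools of mice. Replicate 1 differed most from the others in each group, and no 2 libraries agreed within sampling noise. Counting error only is covered by depth.

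The genes and lists were chosen with earlier results of these data known. Text names the 6 genes, other mitochondrial genes with a mean count of at least 10, the 5 most like nuclear genes, some of the 3 most highly counted members per list, copies with shared stretches, and Lepr, Stat3 and Gfp_L10a.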

Additional observations from a re-analysis of the deposited data

How the results depend on the processing

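The 6 genes were lower in bead-bound RNA and passed within each genotype and over both under every alternative run, except that DESeq2 gave no adjusted p for mt-Co1 over both genotypes (5 of 6 passed). Leaving out 1 library gave 6 of 6 in each. Comparisons of genotypes were less stable. With no filter on low counts, 6 passed in bead-bound RNA between genotypes and 6 for the difference of ratios, against 0 and 0; with no filter and without Ctrl bead-bound replicate 1 (chosen after seeing the data), 2 passed in bead-bound RNA and 0 for the difference. The cause was not tested. The bead-bound values for mt-Nd1, mt-Nd2, mt-Nd4, mt-Nd5, mt-Co1 and mt-Cytb were then 0.76, 0.41, 0.57, 0.14, 0.48 and 0.68, and the differences 0.50, 0.37, 0.49, 0.0014, 0.35 and 0.59. With replicates 2 and 3 only (also chosen after seeing the data), bead-bound values were 0.32, 0.066, 0.23, 0.00060, 0.28 and 0.23, the differences 0.24, 0.21, 0.29, 0.055, 0.27 and 0.30, and in supernatant mt-Nd2, mt-Nd4, mt-Nd5 and mt-Cytb had -0.13, -0.051, -0.049 and -0.062. Leaving out 1 library at a time gave, in bead-bound RNA, -1.55 to 0.77 for mt-Nd1, -1.90 to 0.42 for mt-Nd2, -2.06 to 0.58 for mt-Nd4, -1.38 to 0.15 for mt-Nd5, -1.39 to 0.49 for mt-Co1 and -2.03 to 0.69 for mt-Cytb; for the difference, -1.81 to 0.51, -1.94 to 0.37, -2.14 to 0.50, -1.52 to 0.0083, -1.52 to 0.36 and -2.11 to 0.60 in that order; and in supernatant, -0.15 to 0.30 for mt-Nd2, -0.11 to 0.32 for mt-Nd4, -0.024 to 0.37 for mt-Nd5, -0.013 to 0.36 for mt-Co1 and -0.11 to 0.33 for mt-Cytb, the lowest of each without Stat3KO supernatant replicate 1. The replicate block turned mt-Nd2 in supernatant to -0.027 and changed no other direction or call of the 6 genes.

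Counted over all 37 mitochondrial rows, the share was 1.13% in Ctrl supernatant and 0.0291% in Stat3KO bead-bound RNA; leaving out 1 library gave 0.0151% to 0.0722% in Ctrl bead-bound RNA. Scaling by library totals moved the median of all genes from -0.03 to -0.16 over both genotypes, and the share of calls that were lower from 52.3% to 64.9%, in Ctrl from 50.6% to 67.3% and in Stat3KO from 54.0% to 66.9%. Calls over all genes moved by over 1.5 times as follows. Stat3KO against Ctrl in bead-bound RNA had 78 calls, 124 by DESeq2, 183 without the filter (259 also without the first Ctrl library) and 1167 from replicates 2 and 3. In supernatant it had 2, then 43, 203 and 988, 4 with the block and up to 43 without 1 library. The difference had 39, then 63 and 97 (100 without that library), 59 with the block and 24 without Ctrl supernatant replicate 3. Bead-bound against supernatant RNA in Stat3KO had 5804, 8999 with the pool as a block, and 2879 and 3428 without supernatant replicates 2 and 3; in Ctrl it had 7564, and 4866 without supernatant replicate 2. DESeq2 gave no adjusted p to mt-Nd1, mt-Nd2, mt-Nd4 and mt-Cytb in bead-bound RNA between genotypes. With 3 pools per group, and 1 bead-bound library apart, a change between genotypes smaller than that spread was not detectable.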
